A study of Saccharomyces cerevisiae with 30 samples.

Results

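Expression 15 min after UV irradiation was followed in psocs rad23Δ, a haploid Saccharomyces cerevisiae strain of the BY4742 background that carries lesions in both Rad7 and Rad23. The members were chosen by their titles: the 2 arrays of psocs rad23Δ at 15 min (replicates 1 and 2) and, as their baseline, the 2 arrays of untreated psocs rad23Δ (replicates 1 and 2), which are 4 of the 30 arrays of the series. In this strain the chromosomal RAD7 gene was deleted, a pRS313 plasmid (HIS3 marker) supplied RAD7 with a mutated SOCS box, and RAD23 was replaced by URA3. The related strains used for comparison, each 15 min after UV and untreated, were pRAD7 rad23Δ (the same double deletion with unmutated RAD7 on the plasmid, 2 + 2 arrays), psocs (mutated RAD7, chromosomal RAD23 intact, 3 + 3 arrays) and pRAD7 (unmutated RAD7, RAD23 intact, 3 + 3 arrays). All 4 strains therefore lack chromosomal RAD7. Late log phase cultures, kept at 30 °C in medium that lacked histidine, received 100 J/m2 of UV at 254 nm, and total RNA was hybridised to Affymetrix Yeast S98 arrays. Whether a strain is a single clone is not given in the sources used here. The labels number the replicates as biological without saying whether separate cultures were grown, so that the p-values below measure spread between arrays only. In the main fit that spread was estimated per gene over all 30 arrays of the series and taken as equal in every group.

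UV light leaves pyrimidine dimers in DNA, which yeast removes by nucleotide excision repair. Rad7 and Rad16 act in the global genome branch of that pathway, and through the SOCS box of Rad7 they also join Elongin C and Cullin 3 in a ubiquitin ligase that modifies Rad4 after UV. Rad23, the partner of Rad4 in damage recognition, additionally carries ubiquitinated proteins to the proteasome. UV also sets off 2 transcriptional programmes: the general stress response driven by the factors Msn2 and Msn4, and the Mec1-Rad53-Dun1 checkpoint, which lifts the Crt1 (Rfx1) repressor from the ribonucleotide reductase genes that make deoxyribonucleotides. The series asks whether the ligase and the Rad4-Rad23 complex influence UV-induced expression of such genes, and psocs rad23Δ is the strain in which both are altered.

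The deletion of RAD23 and its URA3 marker matched the labelled genotype. RAD23 gave deposited signals of 2.52 and 2.20 at 15 min and 1.77 and 3.08 in untreated psocs rad23Δ, against 605 to 1570 in the arrays of strains with an intact RAD23. URA3, the marker put in its place, gave 422 and 241 at 15 min and 388 and 347 untreated, against 0.762 to 9.78 in the strains with RAD23. HIS3, the marker of the plasmid, gave 5290 and 5420 at 15 min and 5090 and 4940 untreated. It was also high, at 5970 to 8750, in the strains with RAD23, so that no array without the marker was there for contrast. RAD7, which the plasmid carries in its mutated form, gave 26.0 and 17.4 at 15 min and 32.3 and 36.6 untreated. These lay far below the 242 to 1170 of the strains with the unmutated plasmid gene. A low signal was not particular to this strain, since psocs with RAD23 reached down to 31.7. The part of this lower RAD7 signal in the results was not tested. The mating type was that of BY4742, with the 4 tested alpha-specific genes summing to 22400 to 26900 at 15 min and 20600 to 28300 untreated, while the 7 a-specific genes summed to 214 to 274 and to 239 to 242. None of 19 sporulation genes passed the filter on dim genes. Of 5656 genes with a probe set of their own, 4242 passed that filter. It removed genes whose mean log2 signal over all arrays fell below 6.53, the 25th percentile. Array medians before centring lay between 6.81 and 7.28 on the log2 scale, and an array gives no count depth, so the number of arrays limits the precision.

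At 15 min, 716 of 4242 genes (16.9%) differed from untreated cells at an adjusted p under 0.05 (limma, Benjamini-Hochberg over all genes tested). Of these, 433 (10.2%) were higher and 283 (6.67%) were lower, and 253 moved at least 2-fold, 132 up and 121 down. The standard errors of the log2 changes had a median of 0.21. The arrays at 15 min did not overlap with the untreated ones for 1618 genes that were higher (38.1%) and 925 that were lower (21.8%), and 715 of these 2543 genes also passed the test. The split between higher and lower hung on scaling: 60.5% of the genes past the threshold were higher with the arrays centred on their medians, 46.9% after quantile normalization and 34.5% with the values as deposited. The median change of all genes was 0.11 with centring and -0.03 without it, and small changes are therefore read below against 0.11. The main fit assumes that these 4 arrays spread like those of the other groups. A fit on the 4 arrays alone, in place of all 30, called 67 genes. Leaving out 1 array of the strain gave 912 calls without replicate 1 at 15 min, 138 without replicate 2 at 15 min, 485 without untreated replicate 1 and 246 without untreated replicate 2.

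Genes that handle misfolded proteins were among the largest rises. ROQ1, whose product redirects the ubiquitin ligase Ubr1 under stress, gave centred signals of 611 and 1341 at 15 min against 60.5 and 36.9 in untreated cells, a change of 4.26 ± 0.49 (log2, SE, adjusted p = 4.11e-06). BTN2, a factor that gathers misfolded proteins into deposits, gave 1374 and 2487 at 15 min against 146 and 125.6 untreated. Its change was 3.77 ± 0.28 (adjusted p = 7.00e-09, the smallest of all genes, shared with the ribosomal RNA precursor locus RDN37-1). HSP42, a small heat shock protein that works with Btn2, gave 3027 and 4291 at 15 min against 296 and 237 untreated (3.77 ± 0.33, adjusted p = 6.07e-08). Both arrays at 15 min stood far above both untreated arrays for these 3 genes, which were chosen among genes whose groups do not overlap. CUR1, the paralogue of BTN2, gave 578 and 614 at 15 min against 108 and 72.9 untreated, and its change was almost the same in both arrays (2.70 and 2.79, adjusted p = 5.59e-05). FES1, a nucleotide exchange factor of Hsp70, rose by 1.57 ± 0.24 (adjusted p = 1.28e-04).

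Other large rises were much bigger in replicate 2 than in replicate 1. RGI1, which is needed for normal respiratory growth, gave 413 in replicate 1 and 3237 in replicate 2 at 15 min, against 87.5 and 69.4 in untreated cells (3.89 ± 0.73, adjusted p = 8.74e-04). CYC7, the stress and hypoxic isoform of cytochrome c, gave 302 and 1529 at 15 min against 59.0 and 36.1 untreated (3.88 ± 0.57, adjusted p = 8.19e-05). SOL4, an enzyme of the pentose phosphate route, gave 733 and 3030 at 15 min against 120.0 and 116 untreated (3.66 ± 0.50, adjusted p = 4.05e-05). In each of these the 2 arrays at 15 min lay far apart, yet both were above the untreated arrays, as the choice of the genes required. TMA10, a ribosome-associated protein, showed the widest gap of the 12 largest rises, with 91.4 and 1528 at 15 min against 28.6 and 31.1 untreated (3.65 ± 0.95, adjusted p = 0.0117). GSY1, a glycogen synthase, gave 312 and 1603 at 15 min against 122 and 32.9 untreated (3.48 ± 0.80, adjusted p = 0.00453). HSP30, RTC3, IGD1 and AIM17 completed the 12 genes, with changes between 2.75 and 3.53. The call held in each of the 4 fits that left out 1 array of this strain for 6 of the 12, namely BTN2, CYC7, HSP42, ROQ1, RTC3 and SOL4.

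**Figure D1:**
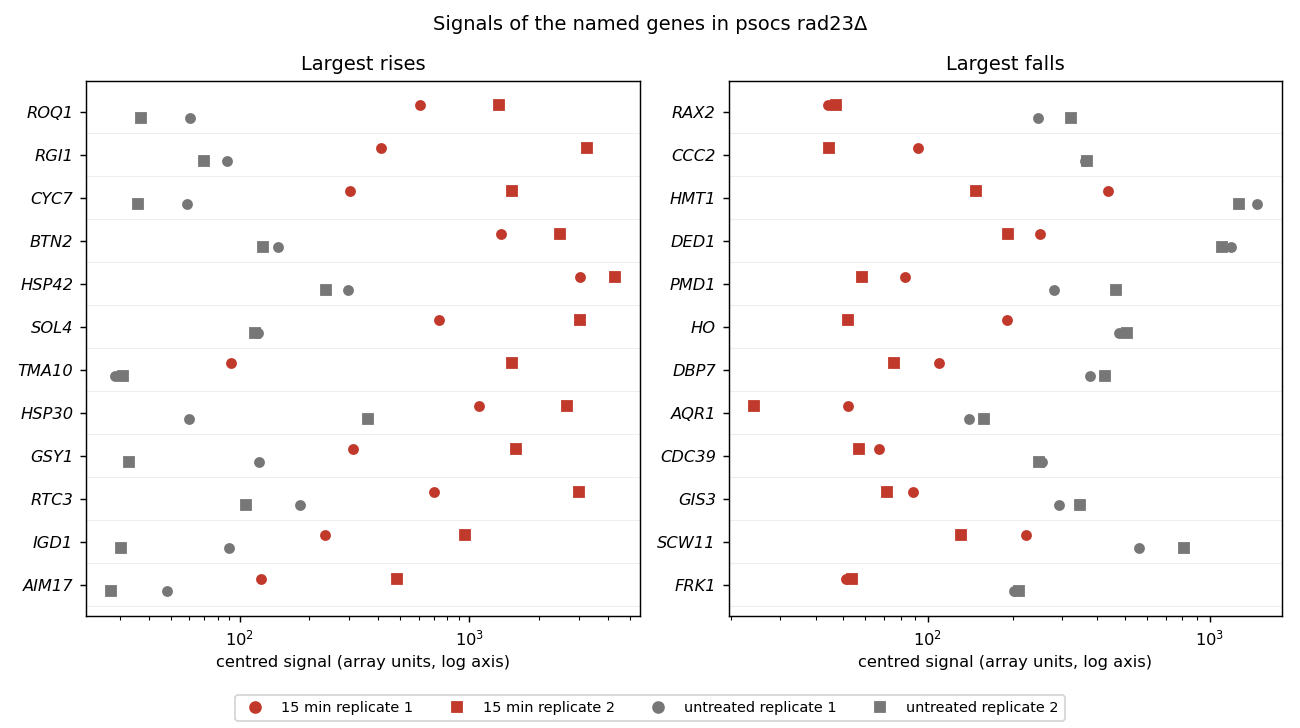
Centred signals (array units, logarithmic axis) of the 12 genes with the largest rise and the 12 with the largest fall in psocs rad23Δ, with each 15 min array in red and each untreated array in grey (circles replicate 1, squares replicate 2). The genes were chosen among those whose groups do not overlap, so that both 15 min arrays lie on the same side of both untreated arrays by that choice. Among the rises replicate 2 lies above replicate 1.

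The genes with the largest falls had no single role, and for several of them the 2 arrays at 15 min lay close together. RAX2, a membrane protein of bud site selection, gave 44.2 and 47.2 at 15 min against 245 and 322 in untreated cells, and fell by 2.62 ± 0.24 (adjusted p = 1.45e-07). DED1, a helicase of translation initiation, gave 250.3 and 192 at 15 min against 1191 and 1107 untreated, and fell by 2.39 ± 0.27 (adjusted p = 3.81e-06). CDC39 (NOT1), around which the Ccr4-Not deadenylase assembles, gave 67.1 and 56.8 at 15 min against 255 and 248 untreated, and fell by 2.03 ± 0.21 (adjusted p = 1.15e-06). The 2 arrays at 15 min lay close together for these 3 genes and far below the untreated arrays, though the choice required groups that do not overlap. HMT1, the major arginine methyltransferase, gave 437 and 149 at 15 min against 1476 and 1273 untreated (-2.43 ± 0.39, adjusted p = 2.01e-04), and HO, the endonuclease gene of mating type switching, gave 191 and 52.1 against 477 and 509.7 (-2.30 ± 0.39, adjusted p = 3.14e-04). CCC2, PMD1, DBP7, AQR1, GIS3, SCW11 and FRK1 completed the 12 genes, with changes between -2.51 and -1.98. For 10 of the 12, all but CCC2 and AQR1, the call held in each of the 4 fits that left out 1 array of this strain.

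The 2 arrays at 15 min differed in the strength of the response. Replicate 2 changed further than replicate 1 in 388 of the 433 genes called higher and in 224 of the 283 called lower. The median change of the genes called higher was 0.61 in replicate 1 and 0.96 in replicate 2, and that of the genes called lower was -0.75 and -1.10. Set against both untreated arrays, replicate 1 was at least 2-fold higher for 50 genes (1.18%) and replicate 2 for 217 (5.12%), with 48 genes shared. Replicate 1 was at least 2-fold lower for 57 genes (1.34%) and replicate 2 for 186 (4.38%), with 49 shared. Thus most genes that moved 2-fold in replicate 1 also did so in replicate 2, but not the reverse. The 2 arrays differed from each other at least 2-fold for 219 genes (5.16%), against 53 (1.25%) for the 2 untreated arrays and 51 (1.20%) for the 2 arrays of this strain at 60 min. The changes of the 2 arrays correlated with r = 0.765 over the 4242 genes, which share the same untreated baseline. pRAD7 rad23Δ showed a like gap, with 236 genes (5.56%) apart by 2-fold at 15 min, but there replicate 1 was the stronger array. In psocs, pairs of untreated arrays were apart by 2-fold for 191 (4.50%), 216 (5.09%) and 32 (0.754%) genes. Its pairs at 60 min were apart for 134 (3.16%), 194 (4.57%) and 21 (0.495%), and those at 15 min for 73 to 78. No pair of the pRAD7 strain with RAD23 exceeded 93 genes (2.19%). Replicate 2 of psocs rad23Δ correlated with pRAD7 rad23Δ replicate 1 at 0.908 over genes, and replicate 1 with pRAD7 rad23Δ replicate 2 at 0.824. The source of the gap was not tested.

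**Figure D2:**
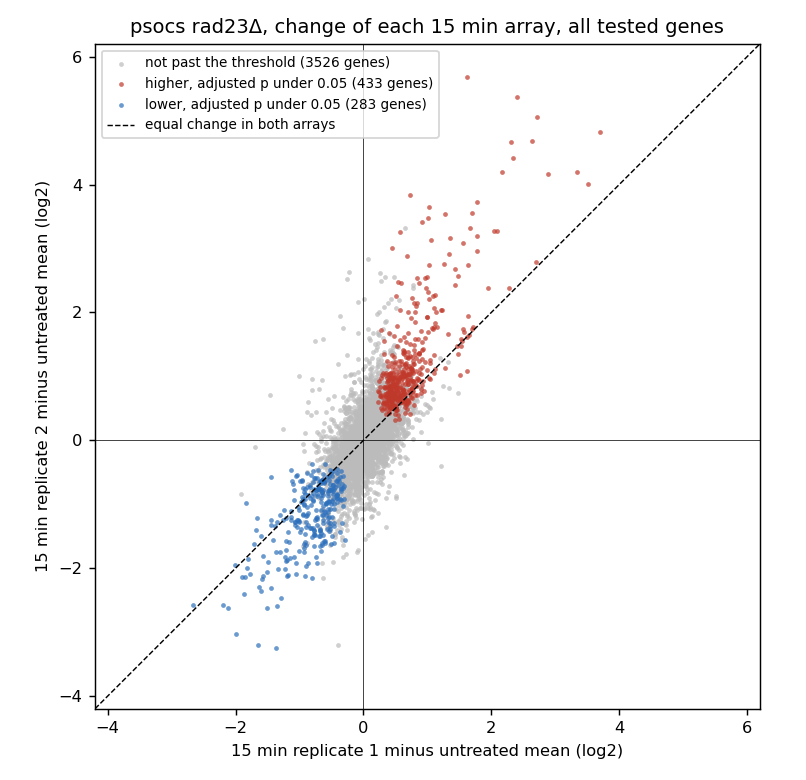
Change of each tested gene in psocs rad23Δ replicate 1 (horizontal) and replicate 2 (vertical) at 15 min, each minus the mean of the 2 untreated arrays on the log2 scale, with the 433 genes called higher in red, the 283 called lower in blue and the diagonal of equal change dashed. Most red points lie above the diagonal and most blue points below it, so that replicate 2 moved further in both directions.

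Several genes differed widely between the 2 arrays at 15 min. HSP12, a small membrane-associated stress protein, gave 1355 and 9384 at 15 min against 1503 and 1754 untreated, so that replicate 1 lay below both untreated arrays and replicate 2 far above them. CTT1, the cytosolic catalase, gave 33.4 and 243 at 15 min against 40.4 and 37.7 untreated. Neither passed the test (adjusted p = 0.228 for HSP12 and 0.227 for CTT1, limma), and their groups overlapped. HXK1, hexokinase 1, gave 734 and 6301 at 15 min against 390 and 498 untreated (2.29 ± 0.72, adjusted p = 0.0326), and its change was 0.73 without replicate 2 (adjusted p = 0.675). Its call was also lost without either untreated array. In the other direction RCL1, a factor of small ribosomal subunit assembly, gave 268 and 38.6 at 15 min against 309 and 406 untreated (adjusted p = 0.0914). OLE1, the fatty acid desaturase, gave 2333 and 714 at 15 min against 1577 and 2129 untreated (adjusted p = 0.497). Such gaps describe these 2 arrays and were not tested.

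Of 56 tested Msn2/4 targets, 32 rose (57.1%, against 10.2% of all genes) and none fell, with a median change of 1.46 against 0.11 for all genes. The median was 0.58 in replicate 1 and 2.42 in replicate 2, and replicate 2 was the higher array for all 56 members. Besides the genes above, SSA4, a heat-inducible Hsp70, gave 354 and 1498 at 15 min against 151 and 191 untreated (2.10 ± 0.46, adjusted p = 0.00347), and HSP104, the disaggregase, gave 711 and 1889 against 396 and 331 (1.68 ± 0.33, adjusted p = 0.00146). In replicate 1 their changes were 1.06 and 0.97, and in replicate 2 they were 3.14 and 2.38. DDR2, a stress gene first found as damage-responsive, gave 852 and 5452 at 15 min against 499.6 and 653 untreated (1.92 ± 0.62, adjusted p = 0.0370), but its adjusted p was 0.707 without replicate 2, 0.149 without untreated replicate 1 and 0.119 without untreated replicate 2. The count of 32 became 46 without replicate 1 at 15 min, 5 without replicate 2 at 15 min, 23 without untreated replicate 1 and 14 without untreated replicate 2. For 5 of the 32 members, CYC7, HSP42, RTC3, SOL4 and TFS1, the call held in each fit that left out 1 array of the strain. MSN2 itself, which codes for one of the 2 factors, fell by 0.79 ± 0.16, with 233 and 249.9 at 15 min against 444 and 391 untreated (adjusted p = 0.00205).

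Genes of reserve carbohydrate metabolism rose in part. In glycogen metabolism 5 of 9 genes rose (55.6%, against 10.2% of all genes, median 1.10), with GLC3, the branching enzyme, at 2.41 ± 0.62 and PGM2, a phosphoglucomutase, at 2.26 ± 0.46. In trehalose metabolism 2 of 7 rose (28.6%, median 0.70), namely the synthase subunits TSL1 (1.69 ± 0.47, adjusted p = 0.0177) and TPS1 (1.04 ± 0.35, adjusted p = 0.0446). In glycolysis 2 of 18 rose (11.1%, near the share of all genes), the hexose kinases HXK1 and GLK1, and the list median of 0.07 lay below that of all genes. Among 7 tested genes of hexose transport none rose and 3 fell (42.9%, against 6.67% of all genes). HXT1, a low-affinity transporter, gave 1396 and 1208 at 15 min against 1771 and 4863 untreated (-1.18 ± 0.40, adjusted p = 0.0443), and the untreated arrays themselves lay wide apart. HXT6 and HXT7, nearly identical high-affinity transporters that the probe sets may not separate, were high in replicate 2 only (7200 and 6627, against 1546 and 1956 in replicate 1) and did not pass the test. Without replicate 2 at 15 min none of these 4 lists had a call, and without untreated replicate 2 the glycogen list had 1 call and the other 3 lists had none.

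Of 34 tested chaperones and heat shock genes 15 rose (44.1%, against 10.2% of all genes) and none fell, with a median of 0.81 over both arrays, 0.43 in replicate 1 and 1.11 in replicate 2. Beside the genes described above, HSP82, the inducible Hsp90, gave 1843 and 4079 at 15 min against 730.2 and 985 untreated (1.69 ± 0.32, adjusted p = 8.40e-04). The Hsp90 co-chaperones AHA1, HCH1 and CPR6 rose by less, with 0.89, 0.87 and 0.70. HSC82 (0.06), SSA1 (0.13) and SSA2 (-0.11), the constitutive Hsp90 and Hsp70 genes, did not pass the test, and the probe sets of such close copies may share signal. The count of rises was 21 without replicate 1 at 15 min and 5 without replicate 2. Of 14 genes of folding in the endoplasmic reticulum only EUG1, a disulphide isomerase, rose (0.84 ± 0.23), a share of 7.14% that is below that of all genes.

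Rad23 delivers substrates to the proteasome, and the genes of that system were followed as a group. Among 40 proteasome genes 3 rose (7.5%, against 10.2% of all genes) and 1 fell, with a median of 0.24 against 0.11 for all genes. RPN4, the transcription factor that drives proteasome genes, gave 797 and 1216 at 15 min against 408 and 313 untreated (1.46 ± 0.25, adjusted p = 3.40e-04). ADD66, a chaperone of proteasome assembly, gave 349.8 and 364 at 15 min against 138 and 81.3 untreated (1.75 ± 0.21, adjusted p = 8.41e-06). The remaining members but ECM29 lay between -0.25 (RPN1) and 0.53 (UMP1), and of them PRE7 alone passed the test (0.41, adjusted p = 0.0466). ECM29, which tethers the 2 particles, gave 248 and 215 at 15 min against 488 and 555 untreated, and fell by 1.17 ± 0.23 (adjusted p = 0.00152). Of 24 genes of ubiquitin conjugation and shuttling 3 rose (12.5%, near the share of all genes), the polyubiquitin gene UBI4 (1.12 ± 0.29, adjusted p = 0.0105) and the conjugating enzymes UBC7 (0.62) and UBC13 (0.47), none of which passed without replicate 2 at 15 min. With replicate 1 left out, at 15 min or untreated, 5 proteasome genes rose, and ADD66, RPN4 and ECM29 passed whichever array was left out.

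The ribonucleotide reductase genes moved little by 15 min. RNR4, a small subunit gene, gave 4676 and 4892 at 15 min against 3575 and 3749 untreated, a change of 0.39 ± 0.13 (adjusted p = 0.0367). Its call was lost without centring (0.24, adjusted p = 0.109) and in each fit that left out replicate 2 at 15 min or an untreated array. RNR1, the large subunit gene that is expressed at the start of S phase, gave 943 and 933 at 15 min against 1238 and 1509 untreated, and fell by 0.54 ± 0.18 (adjusted p = 0.0440), a call that was lost without either array at 15 min or untreated replicate 2. RNR2, the other small subunit gene, gave 1896 and 2441 at 15 min against 1657 and 1490 untreated (0.45 ± 0.19, adjusted p = 0.102), and did not pass. RNR3, the damage-inducible large subunit gene, gave 57.6 and 86.5 at 15 min against 64.3 and 71.6 untreated, so that its groups overlapped (0.06 ± 0.27, adjusted p = 0.907). HUG1, a small inhibitor of the enzyme, gave 122 and 118 against 81.7 and 105 (0.37 ± 0.28, adjusted p = 0.378). Across the 12 tested genes of the pathway 1 rose and 1 fell (8.33% each, near the 10.2% and 6.67% of all genes), with a median of 0.14 that was -0.00 without centring, and among 10 Crt1-regulated genes RNR4 alone passed, with a median of 0.38. At 60 min in the same strain HUG1 was higher by 3.88 ± 0.28 and RNR3 by 3.02 ± 0.27.

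Changes among checkpoint and repair genes ran both ways. DUN1, the kinase that acts on Crt1, gave 97.4 and 132 at 15 min against 99.2 and 95.7 untreated (0.22 ± 0.19, adjusted p = 0.441), and RFX1, which codes for Crt1, gave 102 and 130 against 83.2 and 86.8 (0.44 ± 0.20, adjusted p = 0.134). SML1, the reductase inhibitor that Dun1 marks for destruction, changed by -0.07 ± 0.14 (adjusted p = 0.771), and ACT1, the actin gene, by 0.07 ± 0.15. CHK1, a checkpoint kinase, gave 228 and 249.7 at 15 min against 152 and 154 untreated (0.64 ± 0.24, adjusted p = 0.0646). TEL1, another checkpoint kinase, gave 218 and 174 against 142 and 146 (0.43 ± 0.18, adjusted p = 0.106), and TOF1, a replication fork protein, gave 147 and 98.5 against 191 and 189 (-0.66 ± 0.23, adjusted p = 0.0543). Of 5 tested checkpoint genes DPB11 alone passed, lower by 0.65 ± 0.19, and MEC1, RAD53 and RAD9 were below the filter. For 4 of the 5 the groups did not overlap, and 4 had an unadjusted p under 0.05 (limma). Over all genes the groups did not overlap for 38.1% that were higher and 21.8% that were lower. An unadjusted p under 0.05 was found for 1373 of all 4242 genes (limma). Of 19 excision repair genes TFB5, a small subunit of TFIIH, rose by 0.86 ± 0.21, while MET18, which acts in iron-sulfur protein assembly (-1.97 ± 0.41), and TFB1, another TFIIH subunit (-0.64 ± 0.21), fell. RAD52, the recombination mediator, gave 377 and 342 at 15 min against 665 and 589 untreated, and fell by 0.80 ± 0.16 (adjusted p = 0.00148). Among the excision repair genes 5.26% were higher, against 10.2% of all genes, and 2 of 19 were lower, against 6.67%. Of 16 damage-inducible genes 2 rose (12.5%), DDR2 and UBC13. Without replicate 2 at 15 min RAD52 still passed, whereas none of the checkpoint, excision repair and damage-inducible genes did.

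**Figure D3:**
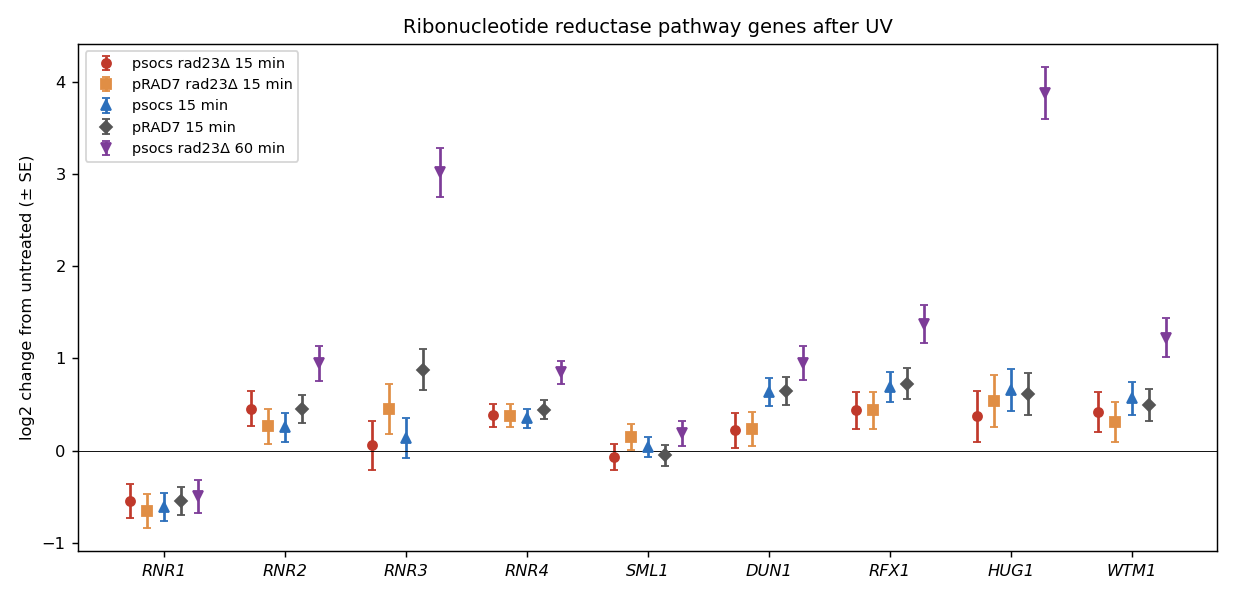
Log2 change from untreated cells (± SE) of 9 genes of the ribonucleotide reductase pathway at 15 min in psocs rad23Δ, pRAD7 rad23Δ, psocs and pRAD7 and at 60 min in psocs rad23Δ. In psocs rad23Δ at 15 min the 9 genes lie between -0.54 and 0.45, while RNR3 and HUG1 in the same strain lie at 3.02 and 3.88 at 60 min.

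The genes that make ribosomes were shifted downwards. Of 122 tested ribosome biogenesis genes 17 fell (13.9%, against 6.67% of all genes) and none rose, with a median of -0.42, and the median was -0.14 in replicate 1 and -0.65 in replicate 2. DBP7, a helicase of the large subunit, gave 110.0 and 75.7 at 15 min against 376 and 427 untreated (-2.13 ± 0.35, adjusted p = 2.67e-04). NOG1, a GTPase of the same pathway, gave 643 and 342 against 1411 and 1555 (-1.66 ± 0.35, adjusted p = 0.00264). Both lay below the untreated arrays in each replicate. Among 26 genes of RNA polymerases I and III 5 fell (19.2%), led by RPO31, the largest subunit of polymerase III, with 170 and 150.0 at 15 min against 566 and 639 untreated (-1.91 ± 0.32, adjusted p = 3.01e-04). The count of 17 was 34 without replicate 1 at 15 min, 3 without replicate 2, 9 without untreated replicate 1 and 4 without untreated replicate 2. Among the ribosomal proteins, whose genes come mostly as close pairs that probe sets may not separate, 2 of 47 of the large subunit fell (RPL15B and RPL22B) and 1 of 33 of the small subunit (RPS9A). Their medians of 0.06 and 0.11 turned to -0.08 and -0.04 without centring.

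Some cell cycle genes of several phases fell. Among 27 genes of G2/M and M/G1 7 fell (25.9%, against 6.67% of all genes) and none rose (median -0.43, with -0.43 in replicate 1 and -0.52 in replicate 2). CLB1, a mitotic cyclin, gave 128 and 67.2 at 15 min against 308 and 274 untreated (-1.65 ± 0.25, adjusted p = 1.28e-04), AMN1, which helps switch off mitotic exit, gave 863 and 607 against 1928 and 2057 (-1.46 ± 0.20, adjusted p = 3.48e-05), and SCW11, a cell wall enzyme of daughter cells, gave 224 and 132 against 562 and 814 (-1.98 ± 0.34, adjusted p = 3.40e-04). Among 24 G1/S genes 4 fell (16.7%), the cyclins PCL2 (-1.52 ± 0.40) and CLN1 (-0.89 ± 0.28) with GIC2 and RNR1. Of the 4 tested histone genes HTB1 and HTB2, near copies of each other, fell by 0.87 each. Without replicate 2 at 15 min or without untreated replicate 2, AMN1, CLB1 and SCW11 were the G2/M and M/G1 calls and no G1/S gene passed. In RNA from whole cultures fewer cells in a phase and less RNA per cell cannot be told apart.

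A part of the respiration and redox genes rose. Of 34 genes of the respiratory chain and ATP synthase 10 rose (29.4%, against 10.2% of all genes) and none fell, with a median of 0.51, and apart from CYC7 and MCR1 (1.33 ± 0.33) the 8 others changed by 0.54 to 0.83. The count was 16 without replicate 1 at 15 min, 1 without replicate 2, 1 without untreated replicate 2, and 3 after quantile normalization. Of 26 oxidative stress genes 5 rose (19.2%), among them the sulfiredoxin SRX1 (1.44 ± 0.33, adjusted p = 0.00424) and the glutaredoxin GRX2 (1.01 ± 0.21, adjusted p = 0.00224). In the citric acid cycle 1 of 19 rose (5.26%; SDH3, 1.05 ± 0.27) and CIT2, the peroxisomal citrate synthase, fell, with 694 and 741 at 15 min against 2223 and 2330 untreated (-1.67 ± 0.41, adjusted p = 0.00738). Of 47 Gcn4 targets in amino acid synthesis 3 rose (6.38%; HOM3, LYS1 and ORT1) and ILV5 fell by 1.20 ± 0.23. Without replicate 2 at 15 min ILV5 passed, but no oxidative stress gene, no citric acid cycle gene and none of the 3 rising Gcn4 targets did. None of 19 purine and none of 14 pyrimidine synthesis genes passed the test (limma; 3 and 2 at an unadjusted p under 0.05), and ATG41, listed with the zinc-regulated genes, rose by 2.38 ± 0.35 with 2367 and 5376 at 15 min against 559 and 845 untreated.

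**Figure D4:**
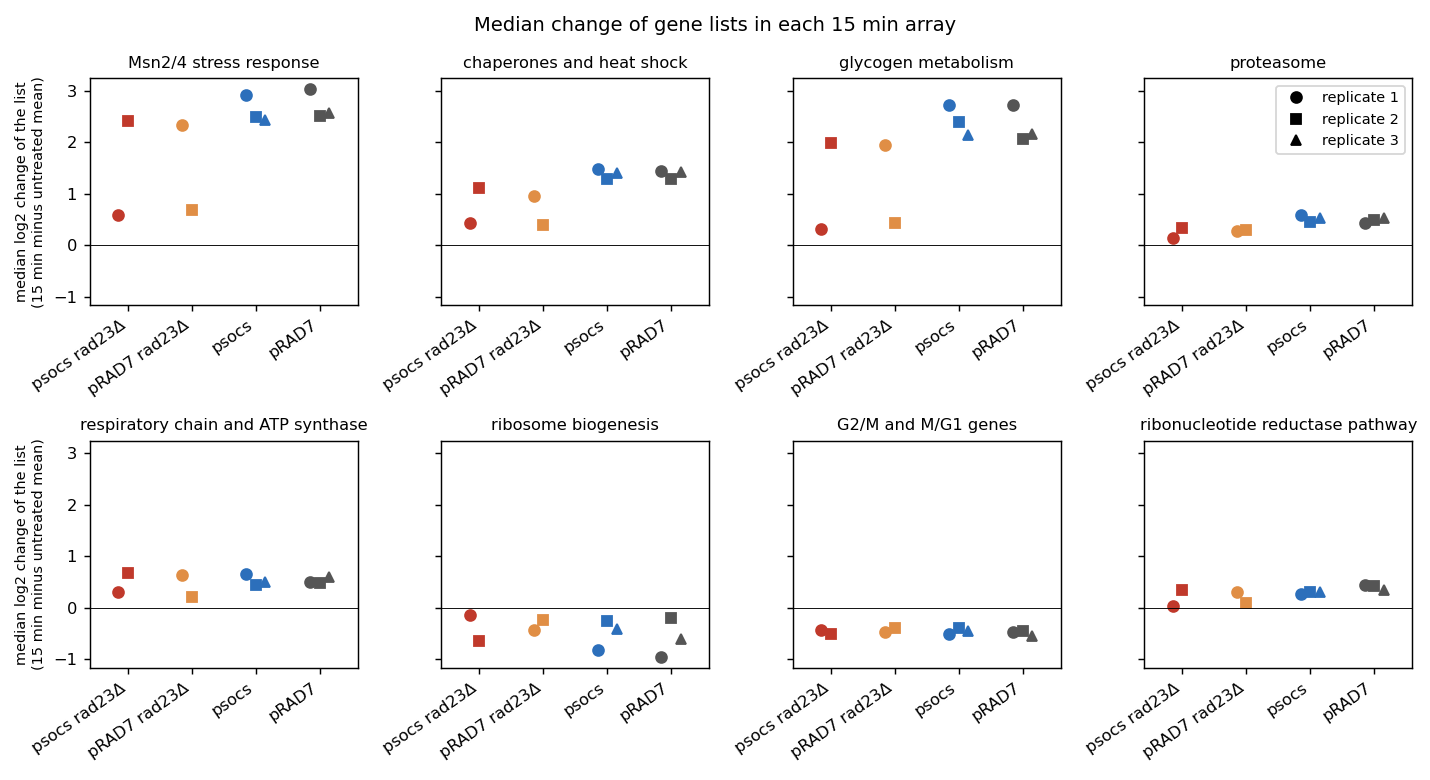
Median log2 change of the tested members of 8 gene lists in each 15 min array, minus the mean of the untreated arrays of the same strain, for psocs rad23Δ, pRAD7 rad23Δ, psocs and pRAD7 (circle, square and triangle are replicates 1, 2 and 3). In the Msn2/4 list psocs rad23Δ lies at 0.58 and 2.42, pRAD7 rad23Δ at 2.33 and 0.67, and the 6 arrays of the strains with RAD23 between 2.44 and 3.04.

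The direction of change also varied with the length of the gene, a property looked at after the values were known. Lengths are the gene spans of the RefSeq annotation (R64), which count introns, and 97.0% of them are multiples of 3. The 283 protein-coding genes that fell had a median length of 1815 bases, the 409 that rose 798 bases and all 4159 tested 1224 bases. Of 454 genes under 500 bases 99 rose (21.8%) and 7 fell (1.54%), whereas of 152 genes of 4000 bases or more none rose (6 at an unadjusted p under 0.05, limma) and 22 fell (14.5%). The long genes that fell include RPO21, the largest subunit of RNA polymerase II (5202 bases), with 746 and 509 at 15 min against 2012 and 2451 untreated (-1.85 ± 0.18, adjusted p = 3.90e-07). They also include TRA1, the scaffold of the SAGA and NuA4 acetyltransferases (11235 bases), with 267 and 118 against 546 and 779 (-1.88 ± 0.30, adjusted p = 1.72e-04), and CDC39 and RPO31 described above. Of the 12 largest rises 9 were shorter than the median of all genes, TMA10 (261 bases) the most, and 3 were longer, namely GSY1 (2127 bases), AIM17 (1398 bases) and BTN2 (1233 bases). Of the 12 largest falls 11 were longer and 1, HMT1, was shorter.

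The ranking by length was alike in both arrays. Spearman's rho between length and change was -0.31 in replicate 1 and -0.31 in replicate 2 over the 4159 genes, a description across genes that share arrays and are not independent. It was -0.34 over the 3389 genes on none of the lists, and between -0.35 and -0.32 within each of 3 bands of the untreated level, which itself hardly varied with length (rho = -0.08). The median change of genes under 500 bases was 0.22 in replicate 1 and 0.38 in replicate 2, and that of genes of 4000 bases or more -0.09 and -0.11, so that the span was wider in replicate 2. Over both arrays these medians were 0.31 and -0.10. At 60 min in the same strain they were 0.39 and -1.12. The same rho was -0.38 in pRAD7 rad23Δ, -0.34 in psocs and -0.34 in pRAD7 at 15 min. RNA integrity was not measured in the files, and its part in this relation was not tested.

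**Figure D5:**
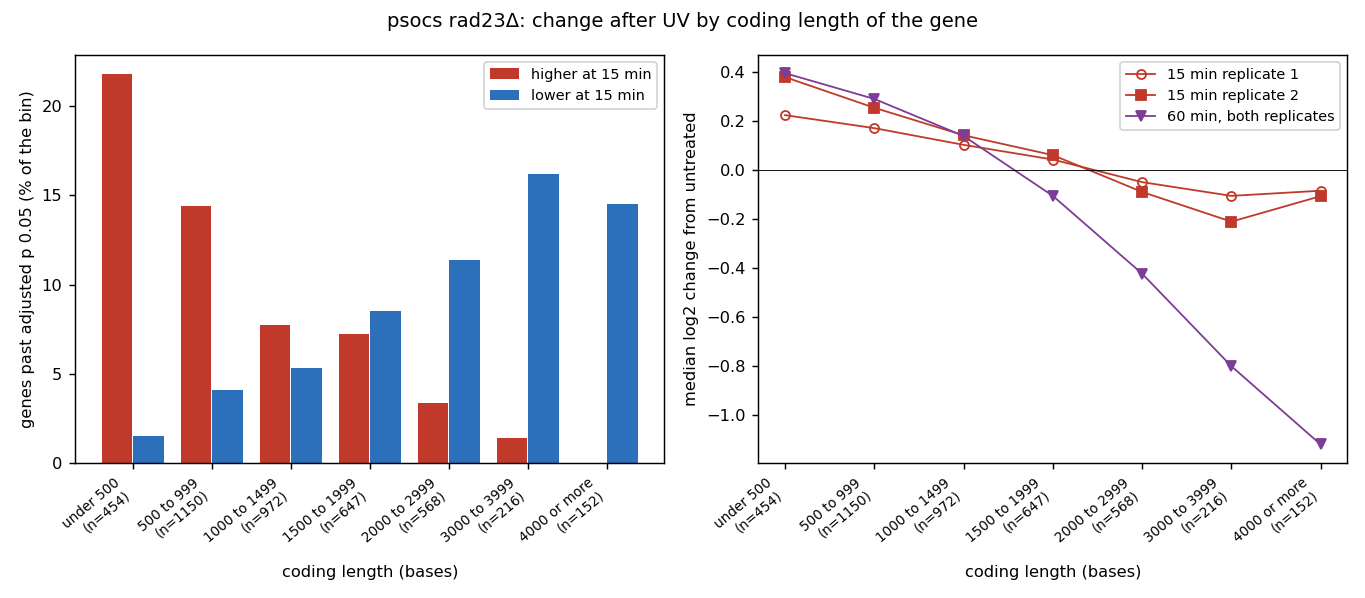
Tested protein-coding genes of psocs rad23Δ grouped by gene length, with the percentage past an adjusted p of 0.05 in each direction at 15 min on the left (red higher, blue lower) and the median log2 change from untreated cells on the right, for each 15 min array and for 60 min. Lengths are gene spans with introns, although the figure labels them coding length. The share of genes that rose drops with length to 0% at 4000 bases or more, and the medians at 60 min span 0.39 to -1.12.

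For 26 genes higher and 38 lower by at least 2-fold the changes of the 2 arrays at 15 min lay within 0.3 log2 units of each other. Of the 26 higher genes 13 were tRNA genes and 11 coded for proteins. Those that were higher included CUR1, ADD66 and HOM3, the aspartate kinase of threonine synthesis (1348 and 1447 at 15 min against 585 and 776 untreated). Those that were lower included RAX2, CDC39, RPO31, ILV5 and CIT2, and also AIM44, a bud neck protein, with 227 and 219 at 15 min against 743 and 843 untreated (-1.83 ± 0.15, adjusted p = 4.04e-08). Transcription and signalling factors among the 38 included SFP1, a regulator of ribosome genes (-1.14 ± 0.15), MIG2, a glucose repressor (-1.55 ± 0.29), and SSN3, the kinase of the Mediator complex (-1.54 ± 0.27). In all, 117 of the 716 calls held whichever array of the strain was left out, 44 of them higher and 73 lower. Of the 44, 13 were tRNA genes, whose near-identical copies the probe sets cannot tell apart, so that they may not be separate rises.

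Set beside the other strains, no gene of psocs rad23Δ had a response that passed the test of the difference. In pRAD7 rad23Δ, which carries the unmutated SOCS box and also has the higher RAD7 signal given above, 626 genes (14.8%) were past the threshold at 15 min. The difference between the responses was past it for 0 of 4242 genes (0%), with 53 genes at an unadjusted p under 0.05 where 212 were expected from the number of tests (limma). Against psocs, which differs in RAD23, it was 0 genes (0%) with 221 at unadjusted p, and against pRAD7 0 genes (0%) with 143. These tests had median standard errors of 0.30, 0.28 and 0.28 on the log2 scale, wider than the 0.21 of the response itself. All 3 comparisons use the same arrays of psocs rad23Δ. Their missing the threshold does not show that the strains responded alike.

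Over the 3 tests the gene nearest to a difference was ADD66, the proteasome assembly chaperone, against psocs. Against pRAD7 rad23Δ the smallest p was that of EGH1 (difference -1.15, 95% interval -1.71 to -0.59), and against pRAD7 that of HSP82. These 95% intervals are not adjusted for the number of genes tested. ADD66 changed by 1.75 in psocs rad23Δ, against 0.48 in pRAD7 rad23Δ, 0.24 in psocs and 0.67 in pRAD7. The differences were 1.27 ± 0.30 (95% interval 0.65 to 1.89, adjusted p = 0.707), 1.51 ± 0.28 (0.94 to 2.08, adjusted p = 0.0590) and 1.08 ± 0.28 (0.51 to 1.64, adjusted p = 1.00). The difference from psocs passed at adjusted p = 0.0396 under the stricter filter on dim genes, at 0.0458 after quantile normalization and at 0.0100 with a replicate block. The untreated arrays of psocs rad23Δ gave 138 and 81.3, and without the first of them the difference from pRAD7 rad23Δ also passed (adjusted p = 0.0454).

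In the stress genes psocs rad23Δ lay below the strains with RAD23, without any gene passing. Of the 56 Msn2/4 targets 55 had a smaller change than in psocs (median difference -1.14) and 54 a smaller change than in pRAD7 (median difference -1.09), where 51.3% and 46.8% of all genes did. Against pRAD7 rad23Δ 31 of 56 were smaller, with a median difference of -0.04. HSP82 changed by 1.69 in psocs rad23Δ against 3.55 in psocs (difference -1.86 ± 0.41, adjusted p = 0.287) and 3.41 in pRAD7 (-1.71 ± 0.41, adjusted p = 1.00). The 2 arrays were unlike here. Replicate 1, with an Msn2/4 median of 0.58, lay far below the 2.44 to 2.91 of psocs and the 2.52 to 3.04 of pRAD7, whereas replicate 2 at 2.42 lay just below both ranges. Without replicate 2, 22 genes passed the test of the difference from psocs, among them HSP82, HSP104, HXK1 and CTT1, all smaller in psocs rad23Δ, and ADD66, which was larger. That fit leaves the 15 min group with its weaker array alone, assumed to vary like the other groups, and without replicate 1 no gene passed (limma). Sulfur assimilation genes leaned the other way, with a more positive change than in psocs for 15 of 16 (median difference 0.45), and none of them passed.

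For the ribonucleotide reductase genes the intervals of the differences can be stated. Between psocs rad23Δ and pRAD7 rad23Δ the difference was 0.11 for RNR1 (95% interval -0.43 to 0.64), 0.19 for RNR2 (-0.37 to 0.75), -0.39 for RNR3 (-1.18 to 0.39) and 0.01 for RNR4 (-0.36 to 0.37). For DUN1 it was -0.01 (-0.56 to 0.53) against pRAD7 rad23Δ and -0.43 (-0.93 to 0.07) against pRAD7. The widest gap was RNR3 against pRAD7, with changes of 0.06 and 0.88 and a difference of -0.82 (-1.54 to -0.11, adjusted p = 1.00). Each of these intervals but that of RNR3 against pRAD7 includes 0, and the ends of those of RNR1 and RNR2 still allow differences of 0.64 and 0.75 log2 units.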

How the data were processed

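Total RNA from 30 samples in 12 groups was labelled as biotinylated cRNA in 1 cycle and hybridised to Affymetrix Yeast S98 arrays. The deposited values are linear signal intensities, which the authors made per the labels with the MAS 5.0 algorithm in Expression Console (version not given in the sources used here), and their trimmed means of 500.3 to 500.5 show scaling to a common target. Intensities below 8.50, the 10th percentile, were raised to it, log2 was taken, and each array was centred on its median, which shifted arrays by -0.13 to 0.34. Signals in the text are these centred values, except those called deposited. The platform annotation gave 6504 of 9335 probe sets (70.1%) 1 gene name, 328 several and 2443 none, and the brightest probe set stood for each of 5656 genes. Of these, 4242 passed the filter on dim genes, at the 25th percentile. Groups were compared with limma 3.58.1 in R 4.3.3 (18 residual degrees of freedom, all 30 arrays in 1 fit without a replicate block), with Benjamini-Hochberg adjustment over all genes tested and 0.05 as threshold. The script was tested on simulated data. Named genes are those of the study and the strains, up to 12 per direction with the largest change among genes called with groups that do not overlap and a level above the median, the members of each list with the largest changes, and the genes with the widest gap between the 2 arrays. Genes named beyond that rule, such as the long genes and those with like changes in both arrays, were chosen after their values were seen. The members and gene lists were chosen with earlier results of these data known. Alternatives were the floor, filter and scaling, all probe sets, array weights, a replicate block, a fit on the compared groups alone and leaving out each array. Promoter sequences were not used here.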

Additional observations from a re-analysis of the deposited data

Results flagged for a closer look

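Probe sets with no gene name or with several names lie outside the comparisons by gene. Of 690 such probe sets tested in a fit on all 5208 probe sets, 94 passed the threshold at 15 min in psocs rad23Δ (limma), 81 of them higher and 13 lower than in untreated cells. Their log2 changes ranged between -2.19 and 2.90. Over all 5208 probe sets of that fit 835 passed, 516 of them higher and 319 lower. Falls were thus a smaller part of the 94 calls than of all calls, and this difference in direction was not tested. The groups of 2 or 3 arrays are too small for a check of single outlying arrays, and no gene differed in response between strains in the test of that difference.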

How the results depend on the processing

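The 81 named genes past the threshold kept their sign under every alternative run. Of the 83 others, 16 turned sign in at least 1, among them HSP12 (-0.26), CTT1 (-0.23) and OLE1 (0.35) without replicate 2 at 15 min. Of all 716 calls, 715 had groups that do not overlap. For such genes leaving out 1 array of the strain cannot turn the sign, so that part of the contrast was fixed in advance. Of the gene-by-alternative verdicts, 216 lost and 80 gained the threshold. With all 30 arrays, 716 genes were called. The stricter filter on dim genes gave 144 lower calls and 1 gene that differed from psocs, quantile normalization gave 280 higher calls and 1 such gene, and the values as deposited gave 220 higher calls. The fit on the compared groups alone gave 67 calls, 29 higher and 38 lower. Leaving out 1 array in turn gave 138 to 912 calls, 48 to 584 higher and 90 to 328 lower, with 0 to 1 genes that differed from pRAD7 rad23Δ, 0 to 22 from psocs and 0 to 1 from pRAD7. Of the 716 genes, 618 were shared with the calls without replicate 1 at 15 min and 137 with those without replicate 2. Without both 15 min arrays of low stress-gene level (psocs rad23Δ replicate 1 and pRAD7 rad23Δ replicate 2), an alternative added after seeing the data, 955 genes were called. The median of the hexose transport list, -0.00, was 0.217 with no filter, 0.183 with the stricter filter, 0.517 without both low arrays and between -0.634 and 0.517 with single arrays left out. The cause of these shifts was not tested.

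Same-numbered arrays of the strain deviated in opposite directions (r = -0.343 over genes). With 2 arrays a group, exchanging the numbers in 1 group would only turn the sign of this r. The labels do not say that a number marks a shared culture or day, and the reason for the sign was not tested. The fit with the replicate block called 749 genes and 1 difference from psocs, ADD66. Blocks added after seeing the data, 1 by strain and 1 with the numbers of the 15 min arrays exchanged, called 762 and 925. A search for promoter motifs was not run. With 2 arrays a group, the number of arrays limits what can be detected.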

Other observations

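Noncoding RNAs stood out among the genes that changed alike in both arrays at 15 min, an observation made after their values were seen. Of 58 tested tRNA genes in psocs rad23Δ, 19 rose, where 10.2% of all genes did, and none fell, 14 of them at least 2-fold, with a median change of 0.60 against 0.11 for all genes tested. The median was 0.68 in replicate 1 and 0.60 in replicate 2, and replicate 2 was the higher array for 31 of 58, unlike the stress genes. For 13 of the 19 the call held whichever array of the strain was left out. SUP16, a serine tRNA gene, gave 265 and 265 at 15 min against 140 and 106 untreated (1.12 ± 0.20, adjusted p = 5.28e-04, limma). Other strains at 15 min had 18 tRNA genes higher in pRAD7 rad23Δ, 42 in psocs and 46 in pRAD7. Their median tRNA changes were 0.34, 0.83 and 0.75. In psocs rad23Δ at 60 min 50 were higher, with a median of 0.97. Calls over all 4242 genes rose too, with 375 higher in pRAD7 rad23Δ, 911 in psocs and 983 in pRAD7. At 60 min psocs rad23Δ had 1324. The groups of psocs and pRAD7 also hold more arrays, so that these counts do not compare the tRNA response between strains. Probe sets of tRNA genes with near-identical copies cannot be told apart.

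Among the probe sets of ribosomal RNA loci, 1 of 3 genes annotated as rRNA rose, as did the precursor locus RDN37-1. RDN37-1, the locus of the large ribosomal RNA precursor, gave 10650 and 11470 at 15 min against 2396 and 2004 untreated (2.33 ± 0.18, adjusted p = 7.00e-09), and the groups were far apart. RDN5-1, a 5S ribosomal RNA gene, gave 10720 and 12220 at 15 min against 3307 and 4007 untreated (1.65 ± 0.27, adjusted p = 2.23e-04). RDN5-3 (0.50 ± 0.24, adjusted p = 0.155) and RDN25-1 (-0.14 ± 0.47, adjusted p = 0.864) did not pass. The ribosomal RNA genes have copies that the probe sets may share. The share of ribosomal RNA carried into the labelling was not measured in the files, and its part in these signals was not tested.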
